A study of Mus musculus with 17 samples.

Results

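Slpi, Fabp5, Rdx, Ppa1, Camk2b and Rgcc, 6 of the 21848 genes measured, were followed in germinal centre (GC) B cells of mice given anti-DEC-OVA. These 6 genes were chosen on their measured values, being among the genes with the largest excess at 48 h after treatment over untreated mice or over treated mice at 72 h. Among genes with an average log2 CPM above 4 that passed the test over both experiments together and had the same sign in each, Slpi, Fabp5, Rdx and Ppa1 held ranks 1 to 4 of 2299 by their excess at 48 h over 72 h after treatment. Ppa1, the last of these, had a log2 difference of 1.07 and Shmt1, the next gene, had 0.96. Camk2b and Rgcc held ranks 4 and 5 of 2304 by their excess at 48 h over untreated mice, both at 0.86, and H1f5 followed at 0.83. For these 6 genes, differences in the time course that involve treated mice or the untreated mice at 48 h are therefore given below as descriptions without a test.

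The mice were OVA-primed CD45.1/1 hosts that received B1-8hi B cells, which bind the hapten NP, a minor part of them able to make DEC-205 and the remainder lacking it (Ly75-/-), and were then immunized with NP-OVA in alum in the footpad. Treated mice were injected in the footpad with anti-DEC-OVA, an antibody to DEC-205 joined to OVA, at day 7, which drives DEC-205-bearing GC B cells to present OVA to T follicular helper cells and then to divide repeatedly in the dark zone (DZ). GC B cells were sorted from the draining lymph nodes, given hashtag antibodies that name the mouse, and made into 10X Genomics 5′ libraries. The time course held 9 mice at 0 h (day 7), 6 untreated and 9 treated mice at 48 h (day 9), and 8 untreated and 7 treated mice at 72 h (day 10), from a larger and a smaller experiment. A second set of 7 treated mice carried the DHB–tdTomato reporter of CDK2 in the B1-8hi cells, and at 72 h gave sorted cells with cytoplasmic reporter (C, CDK2 high) and with nuclear reporter (N, CDK2 low). A first experiment, with an H2B-mCherry division tracker diluted on doxycycline, had 3 mice each at day 7, untreated at day 10 and treated at day 10, and only its treated cells were sorted for DEC-205 and low mCherry. B1-8hi cells were recognized by the receptor pairing in 32.2–77.7% of the cells of a mouse in the time course and in 0.817–13.8% in the first experiment, where treated mice had the lowest shares (0.817–3.46%). In the time course the mean share was 66.9% in treated mice at 48 h and 53.6–58.9% in the other groups. The part of this difference in the levels below was not tested. The study's legends describe time-course cells as DEC-205+, and no label of DEC-205 for each cell was used here.

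GC B cells that receive help from T follicular helper cells enlarge, move to the DZ and divide, and this shift is known to raise genes of protein synthesis, nucleotide synthesis and metabolism before the cells return to the light zone. The 6 genes take different parts in cell physiology. Slpi is a secreted inhibitor of serine proteases such as neutrophil elastase. Fabp5 is a carrier of fatty acids in the cytosol, and Ppa1 is the cytosolic inorganic pyrophosphatase that splits the pyrophosphate released when nucleotides are polymerized or amino acids are activated. Rdx (radixin) is one of the ERM proteins, with ezrin and moesin, that tie the actin cortex to membrane proteins. Camk2b is the beta subunit of the calcium and calmodulin-dependent kinase CaMKII, best known from neurons, and Rgcc is a regulator of the cell cycle found as a gene induced by complement, with reported binding to CDK1. In the GRCm39 annotation all 6 are protein-coding genes on separate chromosomes: Slpi at chr2:164195990-164231015 (minus strand), Fabp5 at chr3:10077602-10081674 (plus), Rdx at chr9:51958473-52015538 (plus), Ppa1 at chr10:61483820-61512640 (plus), Camk2b at chr11:5915791-6016362 (minus) and Rgcc at chr14:79526185-79539085 (minus).

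Promoters of 5 of the 6 genes, from 250 bases before to 50 bases after the start, were read from the RefSeq table of GRCm38.p6, with Fabp5 missing and Rdx represented by 2 starts. They were searched on both strands for 4 motifs. The first, CACGTG, is the E-box bound by MYC with MAX and by USF factors. It was present in Slpi and Ppa1, with its first base 146 and 140 bases before the start, and in 7.17% of all 32544 promoters of this length. The second, GGGCGG, is the GC box, which was found 3 times in Ppa1, 3 times in Camk2b, 5 times in Rgcc and once in 1 of the Rdx promoters, with overlaps among neighbouring copies, against 35.9% of all promoters with at least 1 copy. The third, CCAAT, lies in 37.4% of all promoters and was not in these windows. Nor was the last, TATAAA, which lies in 13.6%. The Slpi (chr2:164356458-164356757, minus strand) and Ppa1 (chr10:61648371-61648670, plus strand) promoters are shown because both hold the palindrome CACGTG, given in capitals, while their base composition differs, with 43.3% G and C in Slpi and 71.7% in Ppa1.
Slpi: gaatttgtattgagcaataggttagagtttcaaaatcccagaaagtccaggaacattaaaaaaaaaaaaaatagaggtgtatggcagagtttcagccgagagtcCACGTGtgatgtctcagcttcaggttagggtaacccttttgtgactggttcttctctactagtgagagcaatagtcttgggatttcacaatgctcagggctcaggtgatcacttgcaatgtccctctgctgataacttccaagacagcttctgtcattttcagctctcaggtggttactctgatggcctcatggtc
Ppa1: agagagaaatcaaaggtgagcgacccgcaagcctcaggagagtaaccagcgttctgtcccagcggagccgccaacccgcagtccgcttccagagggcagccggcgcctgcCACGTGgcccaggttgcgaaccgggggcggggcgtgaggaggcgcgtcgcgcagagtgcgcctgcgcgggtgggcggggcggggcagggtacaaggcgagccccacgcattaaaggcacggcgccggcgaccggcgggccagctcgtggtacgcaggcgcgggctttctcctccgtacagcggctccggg
These matches are letters in the reference sequence, and no binding was measured here.

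The time course kept 23698 cells, 292–1045 per mouse, the reporter set 11833 and the first experiment 10681. All 10 GC B cell markers were detected, whereas 5 of 6 T cell, 8 of 10 myeloid and 7 of 8 endothelial or stromal markers had a median under 2 CPM in the time course, and plasma cell markers were present, as described with Slpi. Treated cells at 48 h stood apart in depth, with a median of 10004–14467 UMIs per cell against 4687–9375 in the other time-course mice, and in the share of cells with a UMI of Mki67, a gene of dividing cells, at 88.4–93.3% against 60.9–88.1%. Summed markers of naive or memory B cells were at 115–234 CPM in these mice against 273–620 CPM elsewhere in the time course. Those of the light zone were at 225–308 against 425–682 CPM, and Cxcr4, the dark zone marker, at 77.7–123 against 64.2–144 CPM. The part of these differences in the levels below was not tested. The larger and smaller experiments shared 94 cell barcodes, and the C and N libraries 6. Levels, also in the figures, are given as CPM, from UMIs summed over the cells of a mouse. They are UMIs per 1000000 UMIs of the genes kept by the filter on low counts, scaled by edgeR's TMM factor. Depth per mouse is thus divided out. Marker sums, and levels in cells with Sdc1 or Prdm1 UMIs set against the other cells, are CPM over all UMIs without this factor. Fold changes are edgeR estimates on the log2 scale ± SE from the summed counts.

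Both metabolic genes had their highest mean at 48 h after treatment and lower medians in treated than in untreated mice at 72 h, with overlapping ranges. Ppa1 ranged from 63.8 to 87.5 CPM (median 75.8, n = 9) in treated mice at 48 h and from 26.9 to 54.8 (median 33.7, n = 7) in treated mice at 72 h, so that these groups did not overlap. Untreated mice had 33.8–72.2 CPM at 48 h (median 45.7, n = 6) and 33.4–62.7 at 72 h (median 49.2, n = 8), and mice at 0 h had 24.5–79.0 (median 39.2, n = 9). Thus 7 of the 9 treated mice at 48 h lay above every untreated mouse of that time, and in the smaller experiment all 3 treated mice lay above both untreated ones. The Ppa1 log2 difference at 48 h was 0.59 ± 0.15 against untreated mice and 1.07 ± 0.16 against treated mice at 72 h.

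Fabp5 ranged from 43.8 to 93.3 CPM (median 67.6) in treated mice at 48 h and from 19.5 to 42.5 (median 22.9) at 72 h, again without overlap. Untreated mice had 23.6–62.2 CPM (median 36.5) at 48 h and 18.1–53.4 (median 36.7) at 72 h. The spread was widest at 0 h, where Fabp5 went from 6.99 to 77.3 CPM (median 21.5), and 7 of 9 mice at 0 h lay below all treated mice at 48 h. The smaller experiment had the higher levels at 48 h, with a mean of 83.3 CPM in 3 treated mice against 57.8 in the 6 of the larger experiment. The log2 difference was 0.70 ± 0.24 against untreated mice at 48 h and 1.25 ± 0.26 against treated mice at 72 h.

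Rdx differed from the metabolic genes in that its level was already high at 0 h. It ranged from 13.5 to 38.0 CPM (median 30.0) at 0 h, from 16.1 to 33.3 (median 24.4) in untreated and from 24.2 to 52.8 (median 35.7) in treated mice at 48 h. At 72 h it was low with and without treatment, at 10.5–22.8 CPM (median 14.95) in untreated and 10.6–35.7 (median 17.1) in treated mice. The treated mice at 48 h exceeded those at 0 h by 0.29 ± 0.12 only, untreated mice at 48 h by 0.56 ± 0.14 and treated mice at 72 h by 1.12 ± 0.15. All 6 treated mice of the larger experiment at 48 h lay above its 4 treated mice at 72 h, and all 3 of the smaller experiment above its 3, although the pooled groups overlapped through 1 treated mouse of the smaller experiment at 72 h, with 35.7 CPM.

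Rgcc and Camk2b, the 2 regulatory genes, had higher medians in treated than in untreated mice at 72 h as well, with overlapping ranges. Rgcc ranged from 77.8 to 144 CPM (median 116) in treated mice at 48 h, against 42.2–81.5 (median 57.9) in untreated mice at 48 h and 37.3–86.6 (median 54.3) at 0 h. Within each experiment the treated and untreated mice at 48 h did not overlap: means were 123 and 68.1 CPM in the larger and 82.8 and 46.0 in the smaller experiment. At 72 h Rgcc was at 45.3–103 CPM (median 81.7) in treated and 39.8–112 (median 60.5) in untreated mice. The log2 difference was 0.86 ± 0.11 at 48 h and 0.26 ± 0.12 at 72 h.

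Camk2b in CPM was at a like level at 48 h and 72 h after treatment, while in UMIs per cell it was lower at 72 h. It was at 16.3–25.3 CPM (median 19.8) in treated mice at 48 h and at 17.1–21.5 (median 19.9) in treated mice at 72 h, a log2 difference of 0.03 ± 0.15, and at 72 h it differed from untreated mice by 0.64 ± 0.18. Untreated mice had 5.20–16.2 CPM (median 13.8) at 48 h, below all 9 treated mice, 4.41–25.0 (median 14.96) at 72 h, and mice at 0 h had 7.83–17.2 (median 11.5). Camk2b was chosen by its excess over untreated mice in CPM, 0.86 ± 0.17 at 48 h. Not divided by the depth of the cells, which was highest at 48 h after treatment, Camk2b had 0.205–0.366 UMIs per cell (mean 0.293) in treated mice at 48 h and 0.119–0.206 (mean 0.174) in treated mice at 72 h. Untreated means were 0.100 at 48 h and 0.116 at 72 h, and the mean at 0 h was 0.106. Its untreated level differed between experiments more than its treated level: at 48 h the untreated means were 14.7 CPM in the larger and 5.89 in the smaller experiment, with treated means of 20.3 and 20.4, which gave log2 differences of 0.44 ± 0.13 and 1.77 ± 0.25. Camk2b had the fewest counts of the 6 genes, 3817 UMIs in all time-course cells.

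**Figure D1:**
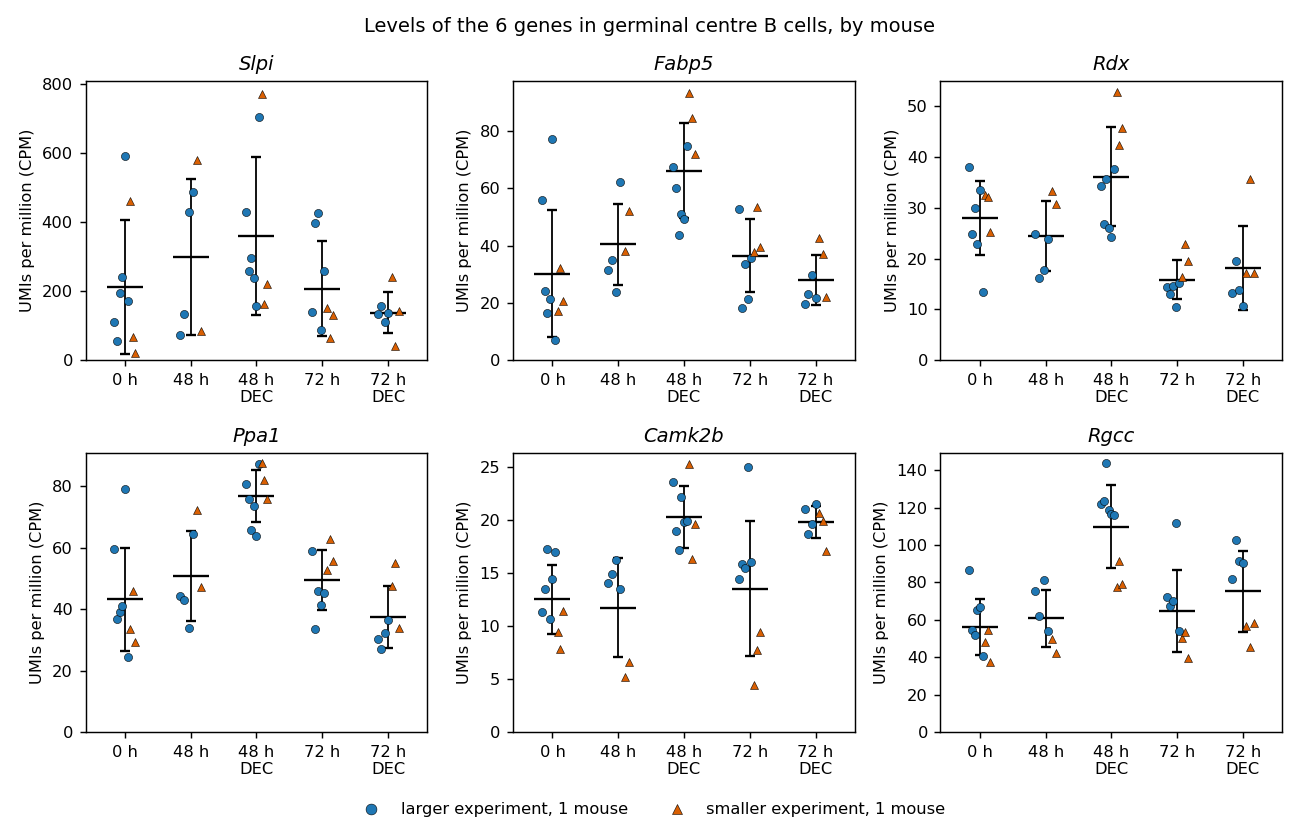
Level of each gene in counts per 1000000 UMIs (CPM, linear axes from 0) by group of the time course, with 1 point per mouse (circles, larger experiment; triangles, smaller experiment), a bar at the mean of a group and whiskers of 1 SD; DEC marks mice given anti-DEC-OVA. Fabp5 and Ppa1 of treated mice at 48 h lie above all treated mice at 72 h, Camk2b is at 16.3–25.3 CPM in every treated mouse at both times, and Slpi spreads over 158–771 CPM in treated mice at 48 h.

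Slpi had a summed level that a small number of cells set. It ranged from 158 to 771 CPM (median 258, n = 9) in treated mice at 48 h, from 73.7 to 581 (median 281) in untreated mice at 48 h, from 21.5 to 590 (median 172) at 0 h, and from 65.1 to 425 (median 146) in untreated and 40.3 to 239 (median 135) in treated mice at 72 h. The groups overlapped broadly, and the log2 difference of 1.36 ± 0.48 between treated mice at 48 h and 72 h and of 0.27 ± 0.47 between treated and untreated mice at 48 h had large errors. In the larger experiment, 150 of 13625 cells with at least 20 Slpi UMIs held 73.7% of all Slpi UMIs, and in the smaller one 105 of 10073 held 76.4%, with up to 2574 UMIs in 1 cell. The 1% of cells highest for Slpi held 73.0% of its UMIs in the larger experiment, whereas for Fabp5, the next most concentrated, the corresponding share was 32.1%.

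Many of these cells carried UMIs of Sdc1 (syndecan-1) or Prdm1 (Blimp-1), which define plasma cells and were fixed as markers of them. Cells with a UMI of either made up 1.23% of the time-course cells (292 of 23698) and 67.3% of all Slpi UMIs. In the larger experiment their Jchain level, the joining chain of secreted antibody, was 10707 CPM against 929 in the other cells, Xbp1, a factor of secretory cells, was 1375 against 144, and Bcl6, the factor that defines GC B cells, was 73.5 against 253. Slpi was 8957 CPM in these cells and 91.3 in the others. The share of such cells per mouse averaged 1.57 ± 0.78% (SD) in treated mice at 48 h, 1.14 ± 0.74% in untreated mice at 48 h, 1.07 ± 0.49% at 0 h, 1.67 ± 0.73% in untreated and 0.612 ± 0.333% in treated mice at 72 h. In order of these mean shares the groups were not in order of their Slpi medians. The part of these cells in the group differences was not tested. The lowest share was in the group with the lowest Slpi median. The highest, in untreated mice at 72 h, went with a Slpi median below those at 0 h and 48 h. For the other genes these cells held 1.74% (Rgcc) to 7.75% (Ppa1) of the UMIs.

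Without the cells with Sdc1 or Prdm1 UMIs, a comparison added after the concentration of Slpi had been seen, the treated mice had the higher Slpi medians at both times, with overlap between groups. It was then at 102–155 CPM (median 145) in treated mice at 48 h, just above all mice at 0 h, of which the highest had 102.1 CPM (median 44.9). Untreated mice had 51.5–138 CPM at 48 h (median 80.1) and 27.5–70.0 at 72 h (median 46.6), and treated mice at 72 h had 38.4–110 (median 103). The log2 differences became 0.71 ± 0.20 at 48 h against untreated, 0.56 ± 0.19 at 48 h against 72 h after treatment, and 0.88 ± 0.22 at 72 h against untreated, where the difference over all cells had been −0.53 ± 0.50. The other 5 genes had differences at 48 h against untreated mice of 0.61 (Rdx) to 0.88 (Rgcc) without these cells.

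**Figure D2:**
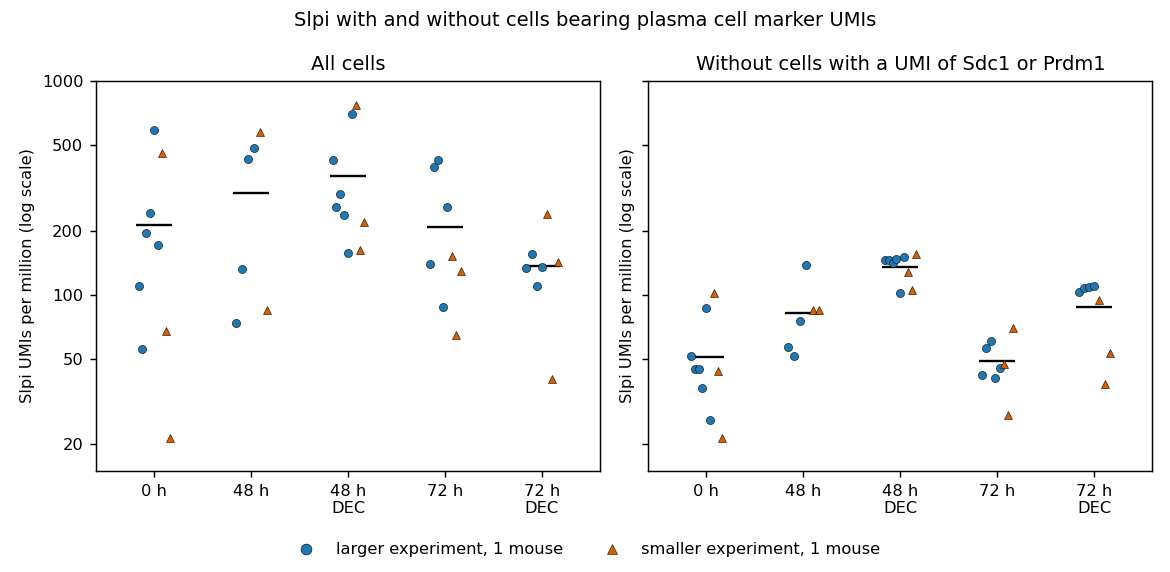
Slpi in counts per 1000000 UMIs (CPM, log axis) by group of the time course, over all cells (left) and without cells with a UMI of Sdc1 or Prdm1 (right), with 1 point per mouse (circles, larger experiment; triangles, smaller experiment) and a bar at the arithmetic mean of a group. On the right the 9 treated mice at 48 h sit at 102–155 CPM, and 5 of the 7 treated mice at 72 h lie above every untreated mouse of that time.

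The share of cells with a UMI of each gene was also taken. To set cells of unlike depth side by side, each cell was thinned to 2871 UMIs, which kept 21331 cells and left out 2367 shallower ones. The share with a Fabp5 UMI was then 9.69 ± 2.47% (SD) in treated mice at 48 h against 4.33 ± 0.92% in untreated mice of that time and 4.38 ± 0.92% in treated mice at 72 h. The Rgcc share was 21.5 ± 2.8%, 11.4 ± 2.2% and 16.6 ± 4.2% in the same order. Camk2b cells made up 5.30 ± 1.58%, 3.02 ± 1.36% and 5.35 ± 0.77%, and Rdx cells 7.26 ± 2.20%, 5.38 ± 1.78% and 4.69 ± 2.90%, a spread in which the Rdx groups overlapped.

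Ppa1 was seen in 12.1 ± 1.8%, 7.26 ± 0.86% and 6.90 ± 1.69% of thinned cells. Slpi, counted by cells rather than by UMIs, stood at 17.5 ± 2.2% and 11.8 ± 3.1% at 48 h with and without treatment and at 16.1 ± 3.9% and 9.12 ± 3.10% at 72 h, all cells included. Thinned cells with a UMI held on average 1.04–1.38 UMIs of the genes other than Slpi in every group, close to the least possible value. At their own depth the shares in treated mice at 48 h were 40.8% for Slpi, 30.8% for Fabp5, 27.9% for Rdx, 39.6% for Ppa1, 19.3% for Camk2b and 50.5% for Rgcc. No cell type known to lack these genes was present in number, so the share that free RNA alone would give was not measured.

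Thinned cells with UMIs of several of the 6 genes were counted as well. At least 2 of the 6 were seen in 16.5 ± 2.4% (12.8–19.8%, n = 9) of the cells of treated mice at 48 h. This share was 7.24 ± 1.27% in untreated mice at 48 h, 6.29 ± 3.11% at 0 h, 6.27 ± 1.09% in untreated and 8.79 ± 1.69% (6.77–11.9%) in treated mice at 72 h. Because the 6 genes were chosen for their levels in these treated mice at 48 h, a higher share there follows from the choice. Whether the genes met in the same cells more often than their single shares give was not tested. None of the 6 was seen in 47.4 ± 2.4% of cells at 48 h after treatment against 65.5 ± 1.5% without.

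**Figure D3:**
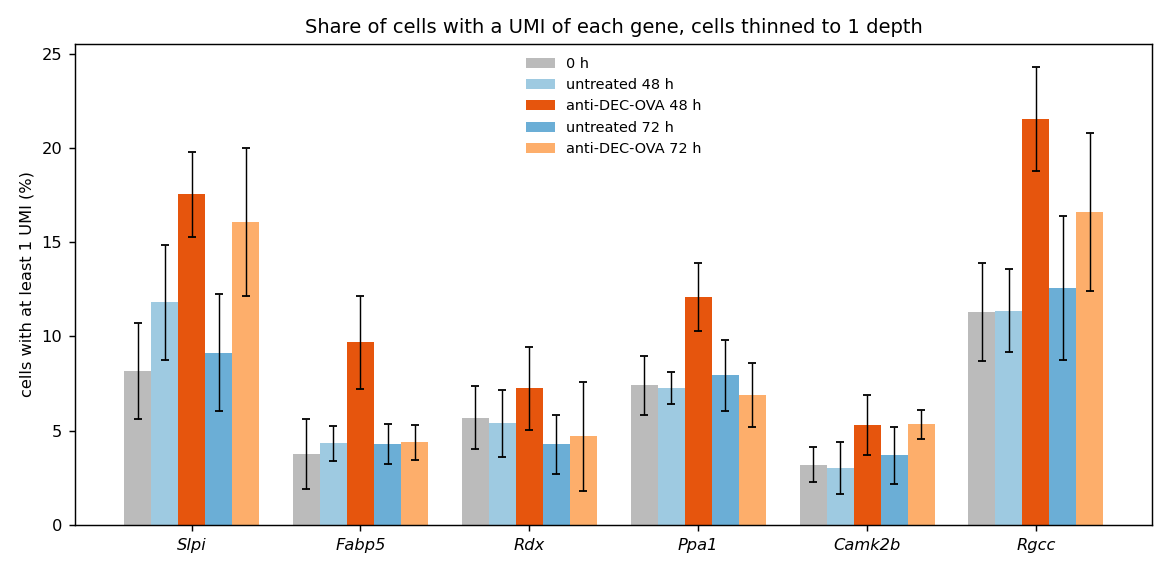
Mean share of cells with at least 1 UMI of each gene (%, axis from 0) in the 5 groups of the time course after thinning each cell to 2871 UMIs; whiskers are 1 SD over 6 to 9 mice. Fabp5 and Ppa1 stand out only at 48 h after treatment, and Slpi and Camk2b are as frequent in treated mice at 72 h as at 48 h within the SD.

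The 6 genes did not vary as 1 block over the 39 time-course mice. After the mean of each experiment was removed, Pearson r of log2 CPM was 0.91 between Fabp5 and Ppa1, 0.64 between Rdx and Ppa1, 0.58 between Fabp5 and Rdx and 0.54 between Fabp5 and Rgcc, whereas Camk2b had 0.07–0.13 with Slpi, Fabp5, Rdx and Ppa1 and 0.46 with Rgcc. Mice of 1 experiment share libraries and the groups differ in depth, so these values are descriptions. The 39 mice include those by which the 6 genes were chosen, so these r, high or low, follow in part from the choice. Among 6812 genes, those most like Ppa1 were Aprt (r = 0.97), an enzyme of purine salvage, Npm1 (0.96), a nucleolar protein, and Hspd1 (0.96), a mitochondrial chaperone. Those most like Fabp5 were C1qbp, Ncl and Mrto4 (each 0.95), of mitochondrial and nucleolar function.

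The genes most like Rgcc were Gcsam (0.88), which encodes the GC-associated signalling protein HGAL, Cmpk1 (0.84), a kinase of pyrimidine nucleotides, and Mprip (0.84), which binds myosin phosphatase. Rdx was followed most closely by Mtap (0.82), of methionine salvage, Mrpl42 (0.81), of the mitochondrial ribosome, and Rnaseh2c (0.81), and Camk2b by Pdcd2 (0.75), Btaf1 (0.66) and Ide (0.64). Ide also had the largest excess at 48 h over untreated mice of all ranked genes, 1.35. Slpi was most like Ssr3 (0.81), Mzb1 (0.76) and Hsp90b1 (0.76), genes of the secretory pathway.

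Without treatment, the interval from 0 h to 72 h changed 1 of the 6 genes. This comparison holds no treated mouse and was not among those by which the genes were chosen, and 4.41% of the 10220 genes tested passed edgeR's quasi-likelihood test with Benjamini-Hochberg adjustment at 0.05. Rdx was lower in untreated mice at 72 h than at 0 h, by −0.92 ± 0.15 (adjusted p = 9.2e-05), or 0.527-fold. In the smaller experiment alone the Rdx difference was −0.65 ± 0.19 and missed the threshold (adjusted p = 0.24), although its 3 untreated mice at 72 h (16.4–22.8 CPM) lay below its 3 mice at 0 h (25.3–32.5). The other 5 genes had differences of −0.08 (Slpi) to 0.16 (Rgcc) with adjusted p between 0.49 and 0.97. For these 5 genes the smaller and larger experiments differed in sign, most for Fabp5, at 0.83 ± 0.22 and −0.14 ± 0.34, and for Slpi, at −0.72 ± 0.81 and 0.23 ± 0.47. The test of the difference between experiments passed for none of the 6 (adjusted p 0.55–0.85 by edgeR). An unadjusted p under 0.05 was found for 2, and the share of all genes with such a p is not given here. These were Ppa1, at 0.59 ± 0.17 and −0.10 ± 0.19, and Camk2b, at −0.29 ± 0.25 and 0.33 ± 0.13 in the smaller and larger experiments.

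The reporter set asked whether the 6 genes differ with CDK2 activity at 72 h after treatment. Of 10120 genes tested with mouse as a block, 75.1% differed between C and N cells, 36.5% being higher and 38.6% lower in C. All 6 genes passed, 5 of them higher by CPM in C cells in 7 of 7 mice. Cells C and N were each 1 library, so library and reporter position cannot be told apart. N cells were the deeper, with a median of 10563–14838 UMIs per cell against 8939–11754, and 71.0–82.0% of N cells had an Mki67 UMI against 96.1–98.1% of C cells. Summed cycling markers were at 4743–5325 CPM in C and 694–992 CPM in N cells. Cxcr4, the dark zone marker, was at 99.0–111 CPM in C and 108–140 CPM in N cells. Summed light zone markers were at 264–366 CPM in C and 655–888 CPM in N cells. Those of naive or memory B cells were at 140–248 CPM in C and 381–598 CPM in N cells. T cell markers were at 5.28–9.60 and 13.0–83.1 CPM. The part of these differences in the results was not tested.

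Fabp5 had 27.9–35.1 CPM in C and 8.90–16.8 in N cells, without overlap, and was 1.29 ± 0.08 higher (adjusted p = 4.5e-13). Ppa1 had 36.2–43.9 CPM in C and 13.4–22.9 in N cells, a log2 difference of 1.17 ± 0.07 (adjusted p = 2.3e-14). The 2 metabolic genes thus were the most different of the 6 here, at 2.44-fold (Fabp5) and 2.25-fold (Ppa1). Rdx was at 17.6–32.0 CPM in C and 8.79–18.4 in N cells, 1.01 ± 0.07 higher (adjusted p = 2.9e-12), with the lowest C mouse below the highest N mouse but above its own N cells. Rgcc was at 88.6–148 and 38.98–87.8 CPM, without overlap, a difference of 0.86 ± 0.04 (adjusted p = 3.6e-15).

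Slpi differed less, with 65.5–135 CPM in C and 53.5–111 in N cells and a log2 difference of 0.43 ± 0.05 (adjusted p = 5.0e-08). Not divided by depth, the mean was 0.979 Slpi UMIs per cell in C and 1.03 in the deeper N cells. In this set the Slpi UMIs were spread over cells: cells with Sdc1 or Prdm1 UMIs were 34 of 11833 and held 1.297% of them. Camk2b was the only one of the 6 lower in C cells, at 10.7–26.3 against 8.56–29.3 CPM and −0.19 ± 0.08 (adjusted p = 0.043), and was higher in C in 2 of 7 mice. The Camk2b call did not survive leaving out any 1 of 5 mice (M1, M10, M4, M5 or M6, adjusted p 0.053–0.22), DESeq2 (0.21), B1-8hi cells only (0.13), leaving out cells with Sdc1 or Prdm1 UMIs (0.058) or leaving out the mouse block (0.45).

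**Figure D4:**
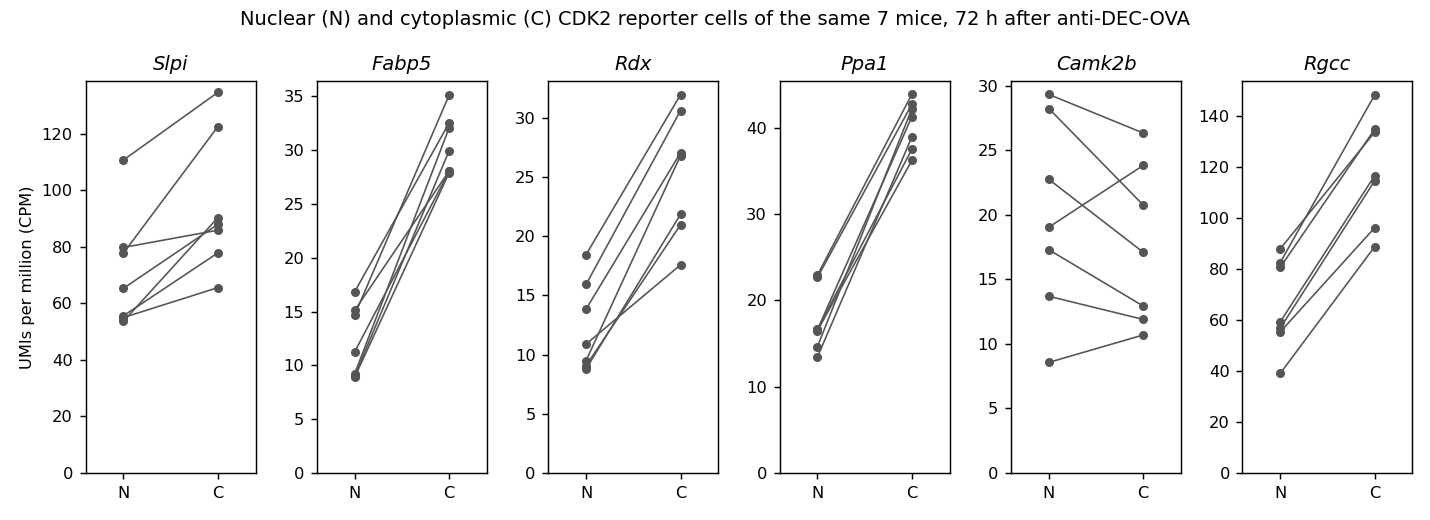
Level of each gene in counts per 1000000 UMIs (CPM, linear axes from 0) in cells with nuclear (N) and cytoplasmic (C) reporter, with 1 line per mouse (n = 7). Lines of Slpi, Fabp5, Rdx, Ppa1 and Rgcc go up from N to C in all 7 mice, and those of Camk2b in 2.

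After thinning to 5260 UMIs, the share of cells with a UMI was 9.67% in C and 3.99% in N cells for Fabp5, 14.4% and 7.02% for Ppa1, 9.57% and 5.80% for Rdx, 33.3% and 22.1% for Rgcc, 26.0% and 19.3% for Slpi, and 7.43% and 8.31% for Camk2b. The direction in cells was therefore that of the summed levels for each gene.

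The first experiment, whose mice had no part in the choice, compared treated with untreated mice at 72 h only. Of 9078 genes tested, 1.95% passed. Slpi did, with 362, 1136 and 1570 CPM in the treated and 42.7, 79.1 and 92.6 CPM in the untreated mice, a log2 difference of 3.70 ± 0.41 (adjusted p = 8.4e-07). All 3 treated mice were above the 3 untreated ones and above the 3 mice at day 7 (83.6, 96.7 and 300 CPM). Without cells with Sdc1 or Prdm1 UMIs, which were 38 of 10681, the treated mice had 362, 796 and 860 CPM, and the difference was 3.09 (adjusted p = 1.7e-10). In that experiment, with a median of 1414–1992 UMIs per cell, 53 cells with at least 20 Slpi UMIs held 67.4% of Slpi UMIs and those with Sdc1 or Prdm1 UMIs held 34.9%. The summed plasma cell markers were at 1661–2296 CPM in the treated, 1389–1511 CPM in the untreated and 1431–1633 CPM in the day 7 mice, and their part in the Slpi difference was not tested. Only the treated cells were sorted for low mCherry, so treatment and sort cannot be told apart there.

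The other 5 genes did not pass in that comparison. Rdx was at 8.05, 9.48 and 13.2 CPM in treated and 0.964, 5.69 and 6.96 CPM in untreated mice, 1.01 ± 0.37 (adjusted p = 0.20). This Rdx value went from 0.61 without M4 to 2.23 without M5, both untreated, and M4 and M6 held 1 and 2 Rdx UMIs. Ppa1 was at 36.9, 38.3 and 46.7 against 25.6, 33.5 and 36.6 CPM, 0.28 ± 0.15 (adjusted p = 0.50). For Camk2b, treated mice spread from 15.6 to 75.3 CPM around untreated mice at 37.0–46.5, while Fabp5 and Rgcc differed by −0.13 ± 0.17 and 0.17 ± 0.15. Between untreated day 10 and day 7, where 0.650% of genes passed, none of the 6 did by edgeR or DESeq2. By edgeR 3 had an unadjusted p under 0.05, as did 772 of all 9078 genes tested. Rdx had −1.12 ± 0.39 (adjusted p = 0.29), with each untreated mouse at day 10 below the 10.1–12.0 CPM of day 7, and ran from −2.34 without M5 to −0.72 without M4. Slpi had −1.06 ± 0.46 (adjusted p = 0.48), and −0.19 without the day 7 mouse M1. Rgcc had 0.59 ± 0.18 (adjusted p = 0.16), with each above the 54.8–59.8 CPM of day 7.

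At 0 h, before treatment, 4 of the 6 genes were higher in cells with a UMI of Mki67 than in cells without. In this comparison within 9 mice, 55.6% of 7976 genes passed, 25.1% being higher and 30.5% lower in cells with Mki67. The depth of these classes was not compared. After thinning, 2590 of 6570 genes passed, and Fabp5 and Camk2b were under the filter on low counts. Ppa1 had a median of 43.4 CPM (27.6–86.3) in cells with and 17.1 (11.1–34.6) in cells without Mki67, was higher in 9 of 9 mice and differed by 1.23 ± 0.15 (adjusted p = 2.6e-08). Rdx was at 31.6 (16.7–40.4) and 14.4 (5.46–24.0) CPM, higher in 9 of 9 mice by 1.04 ± 0.17 (adjusted p = 2.6e-06). Rgcc was higher in 8 of 9 mice, by 0.73 ± 0.11 (adjusted p = 8.3e-07), and Camk2b in 8 of 9, by 0.32 ± 0.20, which did not pass (adjusted p = 0.18).

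Fabp5 was higher with Mki67 in 8 of 9 mice, by 1.17 ± 0.23 (adjusted p = 4.3e-05), but not in the smaller experiment alone (−0.10, adjusted p = 0.81), where Rdx also missed the threshold (0.59, adjusted p = 0.071). Slpi went the other way over all cells, −2.12 ± 0.37 (adjusted p = 9.2e-06), with 4 of 9 mice higher in cells with Mki67. Among cells without Mki67, 14 of 1265 had Sdc1 or Prdm1 UMIs and these held 95.8% of the Slpi UMIs, and among cells with Mki67, 44 of 4034 held 52.7%. Without them Slpi was higher in cells with Mki67, by 0.51 (adjusted p = 0.0013) and in 6 of 9 mice, so the direction reversed. With DESeq2 on all cells the Slpi difference did not pass (−1.30, adjusted p = 0.093).

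Since treated mice at 48 h had the most cells with Mki67, the excess at 48 h was also taken within each class, as the log2 ratio of mean CPM and without a test. In cells with Mki67 it was 0.59 for Fabp5, 0.45 for Rdx, 0.44 for Ppa1, 0.71 for Camk2b and 0.71 for Rgcc against untreated mice at 48 h. In cells without Mki67 it was 0.95, 0.77, 0.70, 1.20 and 0.89 in the same order. The value without Mki67 differed between the larger and the smaller experiment, at 0.96 and 0.13 for Ppa1 and at 1.04 and 0.20 for Rgcc. It was higher in the smaller experiment for Camk2b (0.92 and 2.16), Rdx (0.43 and 1.16) and Fabp5 (0.70 and 1.33). With Mki67, Camk2b was at 0.38 in the larger and 1.72 in the smaller experiment. Few cells lacked Mki67 at 48 h after treatment, 521 of all 9 mice, and their levels varied accordingly, with Rdx at 0–60.0 CPM. Slpi over all cells had 0.29 with and −0.0045 without Mki67, the latter being 1.93 in the larger and −0.76 in the smaller experiment. Without the cells with Sdc1 or Prdm1 UMIs, Slpi had 0.71 with and 0.67 without Mki67, but the latter rested on 1 mouse at 877 CPM, the median of the treated mice being 36.4 CPM and that of the untreated mice 35.0. The classes rest on detection, and depth was highest at 48 h after treatment, so the ratios were also taken after thinning to 2871 UMIs. They were then 1.11, 0.35, 0.59, 0.75 and 0.81 with Mki67 for Fabp5, Rdx, Ppa1, Camk2b and Rgcc. Without Mki67 they were 0.75, 0.59, 0.52, 0.74 and 1.10. Fabp5 and Ppa1 thus had the larger value with Mki67, and Camk2b was nearly alike in both classes. Slpi over all thinned cells had −0.03 with and 0.94 without Mki67.

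Against treated mice at 72 h, cells with Mki67 had an excess at 48 h of 1.25 for Fabp5, 0.93 for Rdx, 0.94 for Ppa1 and 0.47 for Rgcc, and −0.04 for Camk2b. Slpi had 1.31 with and 2.35 without Mki67 over all cells, and 0.61 and 0.73 without the cells with Sdc1 or Prdm1 UMIs, the last being −0.65 in the larger and 2.16 in the smaller experiment. Cells without Mki67 had 0.33 for Fabp5, 1.004 for Rdx, 0.58 for Ppa1, 0.13 for Rgcc and 0.54 for Camk2b. These pooled values hid differences in sign between the larger and smaller experiments for Ppa1, at 1.74 and −0.55, and for Rgcc, at 0.14 and −0.43, and without cells with Sdc1 or Prdm1 UMIs Rgcc was at −0.02. For Fabp5, Ppa1 and Rgcc the pooled value in cells with Mki67 was the larger, and these differences between classes were not tested. For Ppa1 the larger experiment alone had the reverse, 1.10 with and 1.74 without Mki67. After thinning, the excess over 72 h was 1.24, 0.79, 0.89, 0.45 and 0.04 with Mki67 for Fabp5, Rdx, Ppa1, Rgcc and Camk2b. Without Mki67 it was then 0.63, 0.55, 0.50, 0.09 and 0.06.

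**Figure D5:**
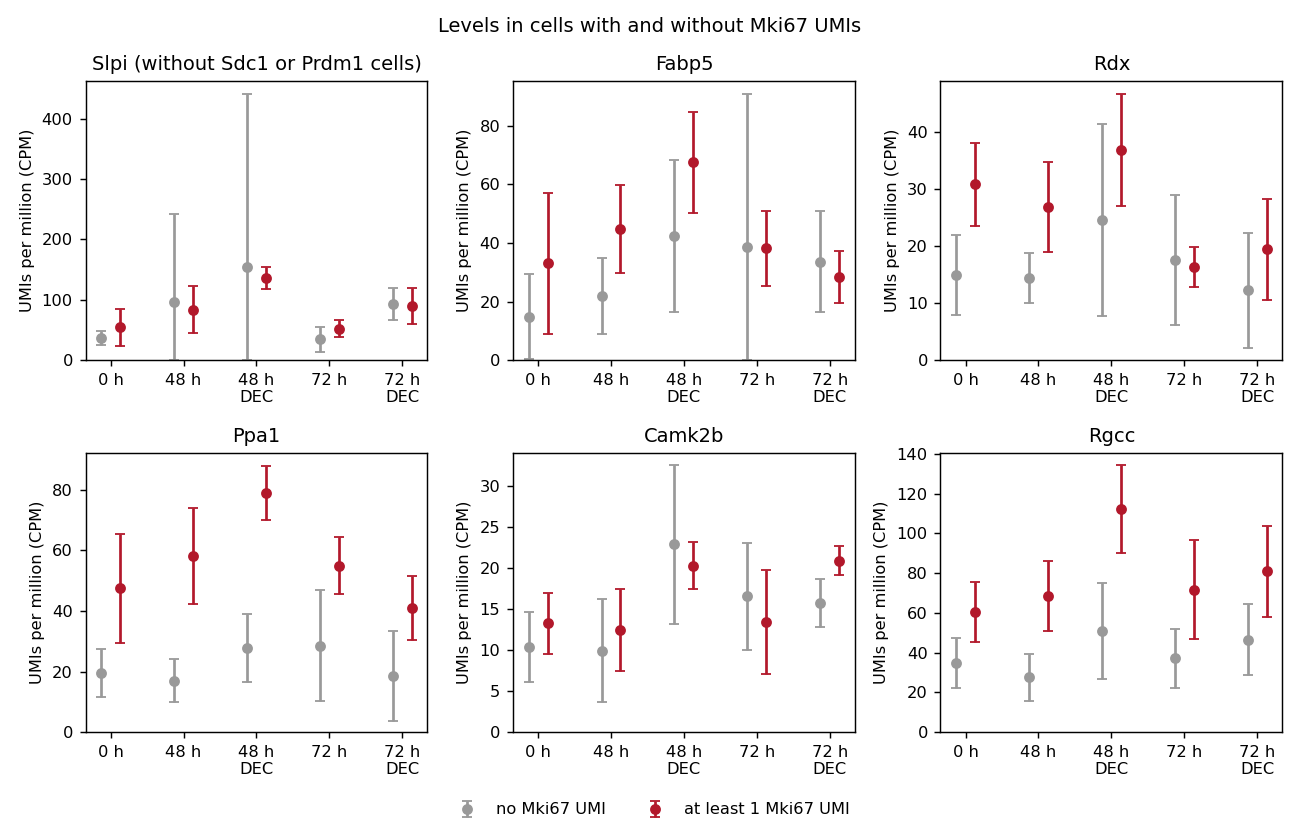
Mean level in counts per 1000000 UMIs (CPM, linear axes from 0) of each gene in cells with (red) and without (grey) a UMI of Mki67, by group of the time course; whiskers are 1 SD over 6 to 9 mice, drawn no lower than 0, and the Slpi panel leaves out cells with a UMI of Sdc1 or Prdm1. At 0 h Ppa1, Rdx, Fabp5 and Rgcc are higher in cells with Mki67, and at 48 h after treatment the wide whiskers of cells without Mki67 come from 521 cells in all.

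Genes set beside these 6 were followed through fixed lists. These lists were chosen with earlier results of these data known, so their counts are descriptions. In the 48 h comparison of treated with untreated mice, 26.3% of all 10220 genes passed as higher and 21.1% as lower, and between treated mice at 48 h and 72 h 26.8% and 22.3%. A list set beside Ppa1, in part of genes that release or split pyrophosphate, held 18 tested genes, mostly of nucleotide synthesis. Of these, 16 were higher and none lower at 48 h against untreated mice, with a median log2 difference of 0.40 against 0.01 over all genes, and 15 were higher and none lower against 72 h (median 0.52). They include Dut (0.60 ± 0.08 against untreated), which hydrolyses dUTP, Paics (0.52 ± 0.06) of purine synthesis, Umps (0.50 ± 0.08) of pyrimidine synthesis, and Ppa2 (0.51 ± 0.08), the mitochondrial pyrophosphatase. The same list had 15 of 18 higher and none lower in C than in N cells (median 0.63), where 36.5% of all genes were higher, and 16 of 16 higher with Mki67 at 0 h (median 0.87), where 25.1% were. None of 18 passed between untreated 72 h and 0 h, where 4.41% of all genes passed. Dut, at 1.43 ± 0.03 between C and N and 2.02 ± 0.07 between Mki67 classes, was the largest in both.

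Of 16 ERM and cortex genes, 3 were higher and 2 lower at 48 h against untreated mice: Nf2 (merlin) was higher by 0.24 and Slk, an ERM kinase, by 0.16, while Msn (moesin) was lower by −0.26 and Stk10, the other ERM kinase, by −0.53. Of 17 fatty acid genes, 4 were higher, among them Elovl6 (0.42 ± 0.11), Fasn (0.34 ± 0.09) and Acsl3 (0.33 ± 0.07), and 1, the desaturase gene Scd1, was lower (−0.37 ± 0.07). Of 16 calmodulin kinase and calcineurin genes, 3 were higher and 6 lower, with Camk2d, another CaMKII subunit, at −0.57 ± 0.05 and the calcineurin subunit Ppp3ca at −0.39 ± 0.05, opposite to Camk2b. In C against N cells 4 of these 16 were higher and 7 lower, against 36.5% and 38.6% of all genes, with Camk2a at −1.22 ± 0.15 and the calmodulin gene Calm2 at 1.45 ± 0.03.

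Of 11 tested serine protease inhibitors and proteases, none was higher and 3 were lower at 48 h, Serpinb1a (−1.03 ± 0.27), an elastase inhibitor like Slpi, Serpinb6a (−0.34 ± 0.10) and the cathepsin gene Ctss (−0.30 ± 0.05). At 0 h 7 of 8 were lower in cells with Mki67 and none higher, against 30.5% lower over all genes. The list around Rgcc held cell cycle kinases, complement regulators and TGF-beta genes, of which 6 of 16 were higher and 5 lower at 48 h. The higher included Plk1 (0.70 ± 0.10), Ccnb1 (0.66 ± 0.09) and Cdk1 (0.58 ± 0.10), which drive mitosis, and the lower included the complement receptor Cr2 (−1.38 ± 0.17) and the complement inhibitor Cd55 (−1.30 ± 0.15). In C against N cells 5 of these 16 were higher and 11 lower, against 36.5% and 38.6% of all genes, with Plk1 at 3.74 ± 0.08, Cdk1 at 3.64 ± 0.05 and the TGF-beta receptor gene Tgfbr2 at −0.96. Between untreated 72 h and 0 h, where 4.41% of all genes passed, these 5 lists had 0 to 2 genes that passed each, all lower, among them the transmembrane ligand Icam2 (−0.22), the desaturase gene Scd2 (−0.51) and the cystatin gene Cst3 (−0.40). Between treated and untreated mice of the first experiment, where 1.95% of all genes passed, 2 genes of the lists did, Cst3 (0.33) and the calcineurin target Nfatc1 (−0.69).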

How the data were processed

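Single-cell 5′ libraries were analysed from 5 pools of hashtagged mice: 2 of the time course, 2 of the reporter set (C and N) and 1 of the first experiment. UMI and hashtag counts were deposited by the authors as Cell Ranger count matrices on mm39 (submitters' notes: Cell Ranger 6.0.1 and Seurat 5.1.0; matrix headers: 7.1.0 for the first experiment and 8.0.1 for the others), and are raw whole-number counts. Cells were assigned to mice by HTODemux (Seurat 5.3.0, quantile 0.99, hashtags with at least 10000 UMIs) through the authors' list of hashtags, and cells with several mice's hashtags were left out, with no other doublet caller. Cells needed at least 200 genes, and a mitochondrial share of UMIs below 10%, which 3114 assigned cells in the smaller and 350 in the larger experiment exceeded. Counts were summed per mouse (349784–20394909 UMIs in the sets) and tested with edgeR 4.0.16 (filterByExpr, TMM, glmQLFit and glmQLFTest, Benjamini-Hochberg over all genes, threshold 0.05) in R 4.3.3. The time course had a term for the experiment, and the C against N and Mki67 comparisons had mouse as a block, since the authors' list names the same mice in both. SDs, and p-values of comparisons without a mouse block, measure the spread between mice. With mouse as a block, p-values measure the spread over mice of the difference within a mouse. C and N were each 1 library, so spread between libraries is not measured there.

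The 6 genes and the gene and marker lists were chosen with earlier results of these data known. Named genes were the 6, for each the 3 with the highest Pearson r of log2 CPM (prior count 2) over 39 mice, and up to 5 of each list with the largest differences that passed, besides genes at the edge of the choice. The alternatives were DESeq2 1.42.0, no filter on low counts or on cells, B1-8hi cells only, hashtags by the highest tag (at least 10 UMIs and 3 times the next), each experiment alone, no experiment or mouse term, only the groups compared, each mouse left out, 2 Mki67 UMIs, thinned cells (10th percentile) and, added later, no cells with Sdc1 or Prdm1 UMIs. The second hashtag and receptor pool of the first experiment, which has no expression library here, was not used. Motifs were matched in RefSeq promoters of GRCm38.p6, and gene positions are those of GRCm39.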

Additional observations from a re-analysis of the deposited data

Results flagged for a closer look

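In the 42 groups of 6 to 9 mice examined for a single far value by Dixon's test at 95%, 2 values of the 6 genes stood out, and about 1 in 20 groups is picked out by chance. Rdx in mouse E2 of the smaller experiment was 35.7 CPM at 72 h after treatment, against 19.5 CPM in the nearest of the 7 mice. Rgcc in mouse M21 of the larger experiment was 112 CPM at 72 h without treatment, against 72.2 CPM in the nearest of the 8 mice. No gene of the 6 differed between the experiments by the test of the difference itself in the untreated 72 h comparison with 0 h (adjusted p 0.55–0.85).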

How the results depend on the processing

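Over the alternatives run, 470 single-gene values kept their direction and, where tested, their side of the threshold. Among these were 71 of the rises at 48 h and 70 of those within Mki67 classes, all without a test. Of the other values, 12 no longer passed, 4 came to pass, 9 without a test moved and 2 reversed. The 2 were Slpi between Mki67 classes without cells with Sdc1 or Prdm1 UMIs (0.51) and Fabp5 there in the smaller experiment alone (−0.10). Between untreated 72 h and 0 h, 451 genes passed, against 77 without a term for the experiment, 256 with only the groups compared and 3 in the smaller experiment alone, where 0 of the 6 genes passed. Between treated and untreated mice of the first experiment, 177 genes passed, against 100 by DESeq2, 280 without the filter on low counts and 27 among B1-8hi cells, where 2 of the 6 passed in place of 1, the other being Camk2b (1.60). Leaving out each mouse there gave 55 (without M5) to 235 genes (105 without M4) and 1 to 2 of the 6, with Rgcc the second without M8 (0.38). Between untreated day 10 and day 7, 59 genes passed, against 35 by DESeq2, 1 among B1-8hi cells, 116 without the filter, with 2 of the 6 (Slpi −1.07, Rgcc 0.58), and 7 (without M5) to 64 with each mouse left out (21 without M1, 33 without M4). Between Mki67 classes, 4437 genes passed, against 2656 in the smaller experiment alone, with 3 of the 6 in place of 5, and 2590 after thinning, where Fabp5 and Camk2b were under the filter. Leaving out each mouse of the reporter set gave 7199–7566 genes and 5 to 6 of the 6. Without the mouse block (the pairing), 7052 genes and 5 of the 6 passed between C and N, and 3476 and 5 between Mki67 classes. The causes were not tested, besides fewer mice, cells or genes in an alternative. Cells of the first experiment had a median of 1414–1992 UMIs, so low genes such as Rdx rest on few counts there.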
